A study of Mus musculus with 6 samples.

Results

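The interleukins and their receptors were examined here as a group of 76 genes, out of 22180 gene symbols measured in the colonic mucosa of 6 male BALB/c mice. A gene belonged to the group where the array platform gave a row of the deposited table a single symbol that begins with Il and a digit, apart from Il25, Il17rb and symbols ending in Rik. Where a symbol had several rows, the one with the highest mean was used, which left 76 of 78 rows. Of the members, 39 encode secreted proteins (cytokines, antagonists and a binding protein), 36 encode receptor subunits, one of them secreted, and 1 is Il1bos, a noncoding RNA on the strand opposite to Il1b.

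The study hybridised 1 Affymetrix Mouse Gene 2.0 ST array per mouse for 2 heterozygous (Mthfd1S+/-) and 4 wild-type (WT, Mthfd1S+/+) animals. Mthfd1 encodes a cytosolic folate enzyme, and Mthfd1S+/- mice are deficient in its synthetase activity. Both genotypes carried the BALB/c background after at least 10 generations of backcrossing, and both received the carcinogen azoxymethane (AOM, 6 mg/kg) followed by 2 cycles of 3% the epithelium-damaging agent dextran sulfate sodium (DSS), 4 days each, beginning 1 and 4 weeks after AOM. Mucosa of normal appearance beside tumours was taken 13 weeks after AOM, and the labels give an age of 7 months where the protocol gives 3 months at the injection. No mouse without AOM and DSS was analysed here, so the values describe mucosa after a past injury in both genotypes. The comparison asks which transcripts differ with the synthetase deficiency.

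Interleukins are small secreted proteins through which leukocytes, epithelium and stroma signal to each other. Each acts through a receptor made of a ligand-binding chain and, often, a chain shared with other cytokines, such as the gp130 protein encoded by Il6st. Signals of the interleukin 1 and interleukin 17 families run through the adaptors Myd88 and Traf3ip2 to NF-kB, and those of the interleukin 2, 6, 10 and 12 families through Janus kinases to STAT factors. In the colon, interleukin 22 and interleukin 18 are known for effects on epithelial repair, interleukin 10 for restraining inflammation, and interleukins 1, 6 and 23 for promoting it.

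All values are log2 signals of 1 row of the table (a transcript cluster), with Mthfd1S+/- mice 1 and 2 and WT mice 1 to 4 always listed in that order. Of 10 epithelial markers, 9 lay among the brightest 25% of the 23521 tested rows, with the goblet cell mucin Muc2 at 13.4, and the crypt base marker Lgr5 was the dimmest at 5.02. Markers of T and NK cells reached 6.86 at most (Cd3e), and 9 of the 11 listed were measured. The mean of the smooth muscle markers was 10.4 and 10.9 in Mthfd1S+/- mucosa, against 10.4, 10.3, 10.5 and 10.6 in WT mucosa, so Mthfd1S+/- mouse 2 held the highest value. The row of the targeted gene, Mthfd1, read 7.96 and 7.63 in Mthfd1S+/- mucosa, against 7.64, 7.63, 7.50 and 7.75 in WT mucosa. How the allele affects the transcript is not stated in the labels, and the row is no check of the genotypes. These are bulk samples, in which fewer cells of a type and less RNA per cell cannot be told apart.

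Upstream sequence is shown for 4 members that the comparisons turn on. Il1r2 and Il1rl2 had, with Il7, the smallest p-values between genotypes, Il22ra1 was the brightest member that separated them, and Il1b varied most between mice. The sequences are the 250 bases before the first listed RefSeq start on GRCm38.p6, 5′ to 3′ on the gene's own strand. They lie at chr1:40085843-40086092, plus strand for Il1r2, chr1:40324339-40324588, plus strand for Il1rl2, chr4:135727909-135728158, plus strand for Il22ra1 and chr2:129371140-129371389, minus strand for Il1b. Capitals mark matches on either strand to the STAT motif TTCNNNGAA, the NF-kB motif GGANTTTCC, the AP-1 motif TGANTCA or the TATA box letters TATAAA.
Il1r2: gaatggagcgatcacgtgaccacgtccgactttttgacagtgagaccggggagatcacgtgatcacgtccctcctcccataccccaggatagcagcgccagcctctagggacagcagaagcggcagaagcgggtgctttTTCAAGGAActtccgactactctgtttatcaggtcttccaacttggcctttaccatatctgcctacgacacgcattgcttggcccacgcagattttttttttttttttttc
Il1rl2: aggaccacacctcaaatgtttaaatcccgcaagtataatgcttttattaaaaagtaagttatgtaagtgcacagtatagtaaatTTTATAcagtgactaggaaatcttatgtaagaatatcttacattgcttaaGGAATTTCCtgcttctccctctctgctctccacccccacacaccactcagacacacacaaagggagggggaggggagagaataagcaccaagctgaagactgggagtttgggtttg
Il22ra1: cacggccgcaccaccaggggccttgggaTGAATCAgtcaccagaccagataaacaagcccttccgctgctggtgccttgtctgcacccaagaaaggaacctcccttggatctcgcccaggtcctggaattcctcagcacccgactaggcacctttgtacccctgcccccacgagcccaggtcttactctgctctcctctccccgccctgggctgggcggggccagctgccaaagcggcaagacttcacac
Il1b: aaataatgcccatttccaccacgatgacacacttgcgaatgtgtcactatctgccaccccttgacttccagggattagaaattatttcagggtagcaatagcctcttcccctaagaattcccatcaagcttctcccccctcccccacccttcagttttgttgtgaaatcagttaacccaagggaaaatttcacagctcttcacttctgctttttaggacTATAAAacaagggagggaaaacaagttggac

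In these windows Il1r2 held 1 STAT match, Il22ra1 held 1 AP-1 match, and Il1b held a TATA box match from base -31 to base -26 before its start. Il1rl2 held an NF-kB match and a TATA box match on the opposite strand; no 2 matches overlapped. Of the 76 members, 60 were in the RefSeq promoter table; Il7 was not. The STAT motif was in 11.7% of the 60 member windows, and in 7.18% of the windows of 27025 genes. For NF-kB the shares were 6.67% of member windows and 1.05% of all windows, for AP-1 18.3% and 6.87%, and for the TATA box 20% and 13.0%. These shares are letter matches, which describe the sequence and do not show that a factor binds.

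The bright rows of the group were mostly receptors, and the dim rows mostly cytokines. Of the 36 receptor genes, 7 lay in the brightest 25% of all tested rows (mean signal of at least 7.46) and 5 in the dimmest 25% (below 4.69). Among the 39 secreted members, 1 lay in the brightest 25% and 17 in the dimmest. As shares, the brightest 25% held 19.4% of receptors and 2.56% of secreted members, and the dimmest held 13.9% and 43.6%. Row signals depend on their probes as well as on the transcript, so these positions describe the array, and a row in the dimmest 25% may read background, since detection calls were not used. No test was made of this difference in brightness.

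The bright receptor genes were chains known from epithelium or shared across many cell types. Il13ra1, a chain of the interleukin 13 receptor, was the brightest member, at 10.29 and 10.38 in Mthfd1S+/- mucosa, against 10.34, 10.34, 10.25 and 10.58 in WT mucosa. Il6st followed with a mean of 9.81. Il10rb, the chain that the interleukin 10 and interleukin 22 receptors share, read 9.48 and 9.47, against 9.64, 9.53, 9.50 and 9.47 in WT mucosa. Il17rc, a chain of the interleukin 17 receptor, read 9.50 and 9.44, against 9.62, 9.41, 9.49 and 9.50. The genotypes overlapped for Il13ra1, Il10rb and Il17rc. The other bright receptor rows were Il22ra1, Il4ra (mean over 6 mice 8.16) and Il1r1 (7.91). The 1 bright secreted member was Il18, a cytokine that colonic epithelium makes, with a mean of 8.88.

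**Figure D1:**
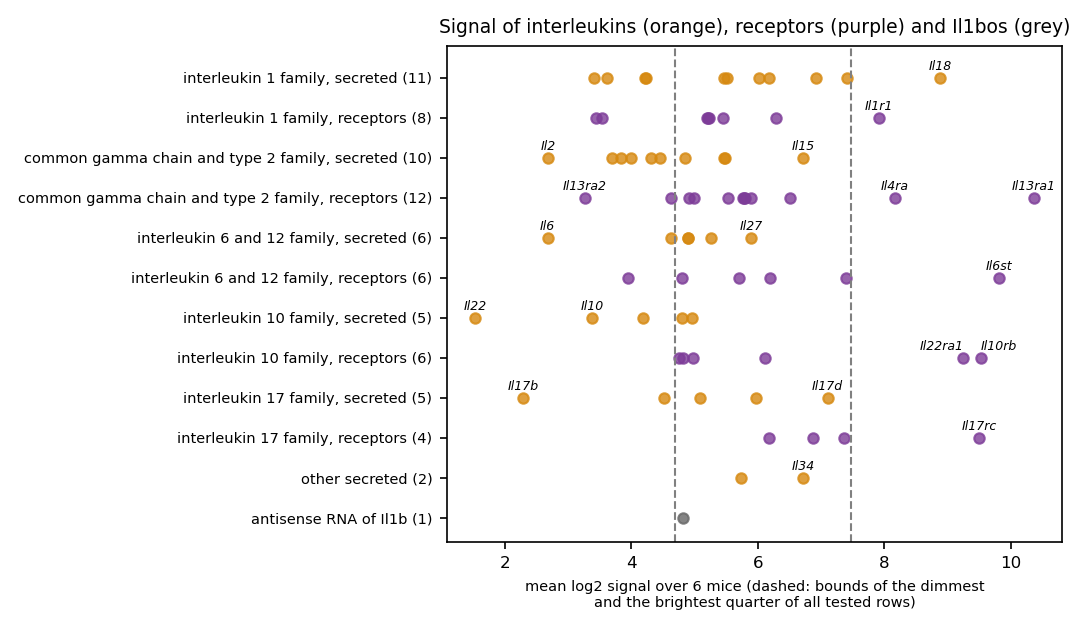
Mean log2 signal over 6 mice (horizontal axis) of each of the 76 members, by family, with secreted proteins in orange, receptors in purple and the antisense RNA Il1bos in grey; dashed lines mark 4.69 and 7.46, the bounds of the dimmest and the brightest 25% of all tested rows. Receptors make up 7 of the 8 points right of the upper line, and secreted members 17 of the 22 left of the lower line.

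Several cytokines best known from intestinal inflammation were among the dimmest rows. Il22 read 1.55 and 1.57 in Mthfd1S+/- mucosa, against 1.37, 1.75, 1.44 and 1.49 in WT mucosa, and stood at the 0.0170 percentile of tested rows. Il6, an inflammatory cytokine that acts through gp130, read 2.55 and 2.58, against 2.86, 2.69, 2.69 and 2.69, with a log2 fold change of -0.17 ± 0.088 (SE; adjusted p 0.858 in limma). The 2 Mthfd1S+/- mice were the lowest for Il6, and the WT mouse with the highest reading stood apart from the other WT mice. Il10 read 3.35 and 3.45, against 3.48, 3.21, 3.43 and 3.36. Il17a, the main product of helper T cells of the Th17 type, read 4.53 and 4.40, against 4.81, 4.50, 4.36 and 4.48. For Il23a, the specific subunit of interleukin 23, the values were 4.47 and 4.60, against 4.59, 4.65, 4.62 and 4.87. Il22, Il10, Il17a and Il23a all overlapped between genotypes. At such signals a difference between genotypes may not be detectable. Some receptor chains for the same cytokines read higher on their own rows: Il22ra1 9.25, Il10rb 9.52 and Il17rc 9.49. Others were dimmer: Il10ra had a mean of 6.10, and Il23r had 3.94, below Il23a at 4.63.

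Across all 76 members no gene passed the test between genotypes. With limma and Benjamini-Hochberg adjustment over the 23521 tested rows, 0 members and 0.0% of all rows had an adjusted p under 0.05, and the smallest adjusted p was 0.837 for members and for all rows alike. Ordinary least squares also called 0 members. At an unadjusted p under 0.05 there were 3 members (3.95%), against 5.79% of all tested rows. All 3 were lower in Mthfd1S+/- mucosa, where 2.44% of all rows were lower at that threshold, and 0 were higher, where 3.36% of all rows were. The members' share thus lay near the background. The count was 1 without WT mouse 3 (1.32% of members, against 5.38% of all rows) and 8 without Mthfd1S+/- mouse 1 (10.5%, against 8.21%). With arrays centred on their medians it was 6 (7.89%, against 5.91%).

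The median log2 fold change of the members was -0.025 (43 negative, 33 positive), and that of all tested rows was 0.012. Secreted members had a median of -0.032 and receptors of -0.016. Single members ran from -0.37 to 0.24, and none reached 1.5-fold (0.58 on the log2 scale). The 95% interval of the difference lay wholly within 1.5-fold on either side for 70 of 76 members, as it did for 91.3% of all rows. For the other 6 (Il5ra, Il7r, Il1rl2, Il1b, Il1rn and Il22ra2) the interval reached beyond 1.5-fold. With 2 and 4 mice an exact permutation test of a single gene cannot give a p below 0.0667.

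**Figure D2:**
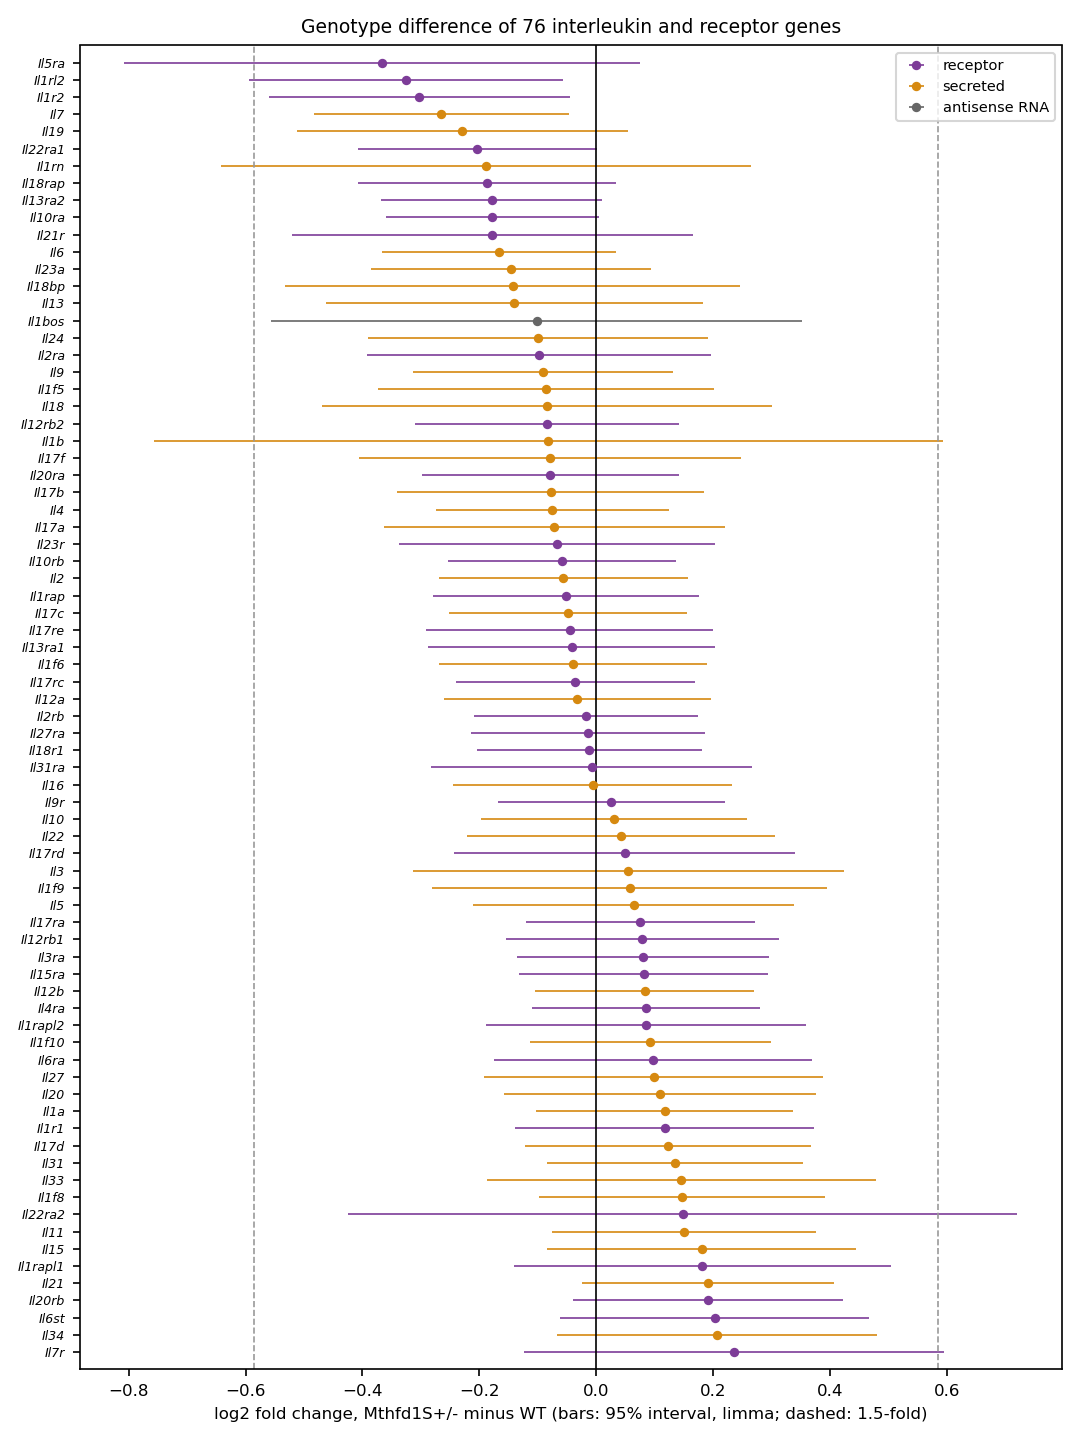
Log2 fold change of each of the 76 members, Mthfd1S+/- minus WT (horizontal axis), with its 95% interval from limma, in order of size, with receptors in purple, secreted members in orange and Il1bos in grey; dashed lines mark 1.5-fold. The interval leaves out 0 for 3 members (Il1rl2, Il1r2 and Il7) and reaches past a dashed line for 6.

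Separation of the genotypes was also read mouse by mouse. Both Mthfd1S+/- mice read below all 4 WT mice for 7 members (9.21%), against 6.04% of all tested rows, and above all 4 WT mice for 4 members (5.26%), against 7.96% of all rows. The 7 were Il7, Il1rl2, Il1r2, Il22ra1, Il10ra, Il13ra2 and Il6, of which 5 are receptor genes. The 4 were Il34, Il21, Il11 and Il12b, all of them secreted. By role, 13.9% of receptors and 5.13% of secreted members were on the lower side, and 0% and 10.3% on the higher side. These shares rest on few genes, and the split by role was not tested. Over all members the counts were near the background shares, and none of the 11 genes passed the adjusted threshold.

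**Figure D3:**
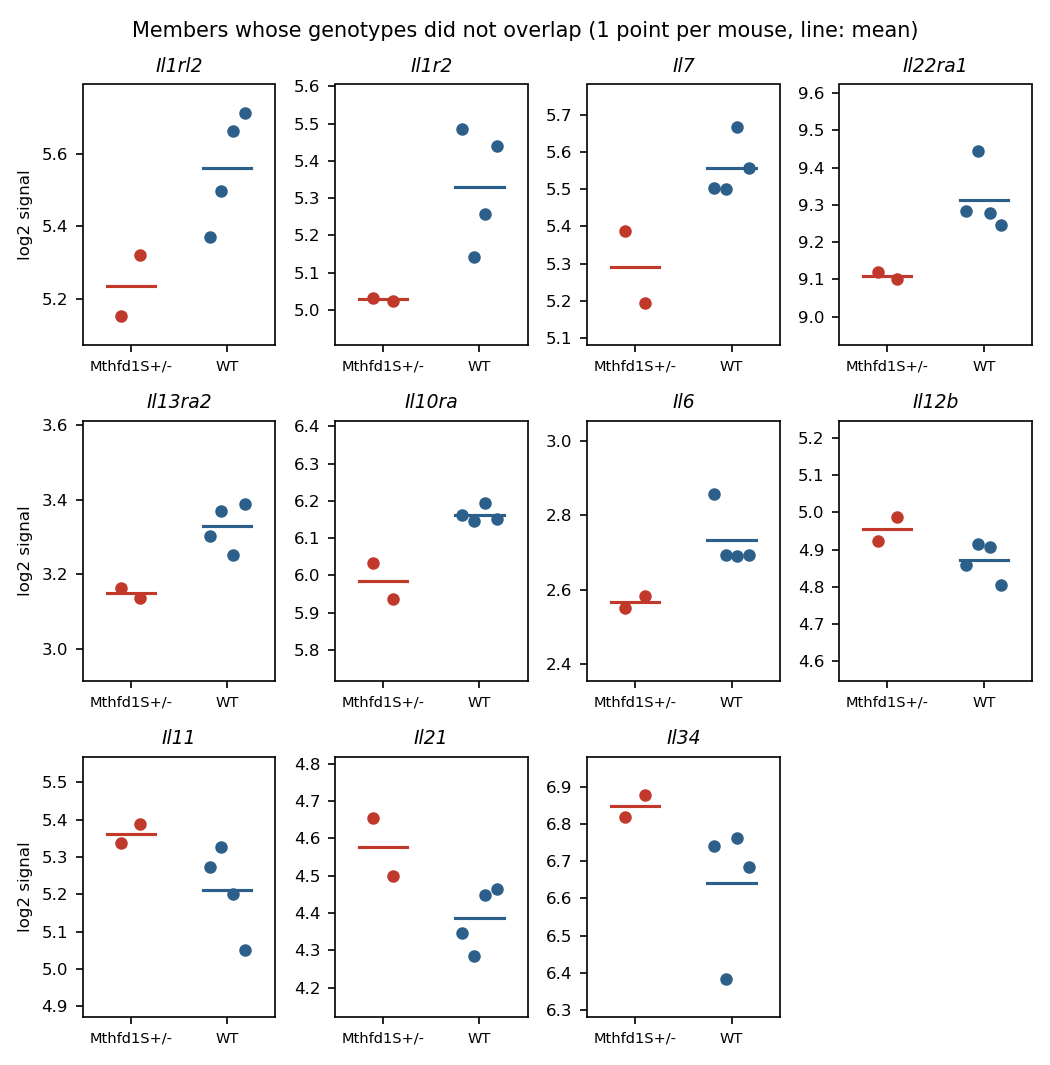
Log2 signal (vertical axis, a separate scale per gene with the same smallest span) of the 11 members whose genotypes did not overlap, with 2 Mthfd1S+/- mice in red left of 4 WT mice in blue; lines are group means. Il1r2 has its Mthfd1S+/- mice close together at 5.03 and 5.03, below WT mice of 5.14 to 5.48, and the gap between the groups is small for Il12b.

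Il7, a stromal and epithelial cytokine that lymphocytes need for survival, read 5.39 and 5.19 in Mthfd1S+/- mucosa, against 5.50, 5.50, 5.67 and 5.56 in WT mucosa. The log2 fold change was -0.27 ± 0.095 (SE), with an unadjusted p of 0.0228 and an adjusted p of 0.837 in limma. Leaving out single mice gave -0.36 to -0.17. Its receptor chain Il7r had a positive difference and read 5.70 and 6.19 in Mthfd1S+/- mucosa, against 5.62, 5.59, 5.66 and 5.96 in WT mucosa, with a log2 fold change of 0.24 ± 0.16 (SE; adjusted p 0.885 in limma). The high value belonged to Mthfd1S+/- mouse 2 alone, and without that mouse the difference was -0.0088.

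Il1rl2 encodes the receptor for the interleukin 36 cytokines. It read 5.15 and 5.32 in Mthfd1S+/- mucosa, against 5.37, 5.50, 5.66 and 5.71 in WT mucosa, a log2 fold change of -0.33 ± 0.12 (SE) with an unadjusted p of 0.0231 and an adjusted p of 0.837 in limma. Its ligands, which the files call Il1f6, Il1f8 and Il1f9, and the antagonist Il1f5 showed no such separation. Il1f6 read 5.48 and 5.40, against 5.53, 5.58, 5.30 and 5.50 in WT mucosa. Il1f8, Il1f9 and Il1f5 lay in the dimmest 25% of rows, at means of 3.62, 3.41 and 4.22, so the ligands' values there may read background.

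Il1r2 encodes a decoy receptor that binds interleukin 1 without signalling. It read 5.03 and 5.03 in Mthfd1S+/- mucosa, against 5.48, 5.14, 5.26 and 5.44 in WT mucosa, with a log2 fold change of -0.30 ± 0.11 (SE), an unadjusted p of 0.0268 and an adjusted p of 0.837 in limma. The signalling receptor Il1r1 read 8.004 and 7.98, against 7.86, 8.10, 7.78 and 7.76 in WT mucosa, so WT mouse 2 held its highest value. Its accessory chain Il1rap, which Il1rl2 also uses, had 3 rows with means of 6.29, 3.60 and 3.00 and log2 fold changes of -0.052, -0.065 and -0.14.

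The genes Il1r2, Il1r1, Il1rl2, Il18r1 and Il18rap are neighbours on chromosome 1. Their log2 fold changes did not share a direction: Il1r1 had 0.12, Il18r1 -0.011 and Il18rap, the accessory chain of the interleukin 18 receptor, -0.19. For Il18rap the Mthfd1S+/- mice read 5.17 and 5.00, against 5.23, 5.16, 5.32 and 5.37 in WT mucosa, so the groups overlapped, and the difference was -0.10 without Mthfd1S+/- mouse 2. In all, 36 members fell into 13 such groups of neighbours, with at most 2 other protein-coding genes between a member and the next in RefSeq's gene order. The 6 neighbours on chromosome 2 from Il1f8 to Il1rn ran from -0.19 to 0.15, and Il4, Il13 and Il5 on chromosome 11 from -0.14 to 0.064.

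Among receptors of the interleukin 10 family, Il22ra1, the chain that makes epithelium responsive to interleukin 22, read 9.12 and 9.10 in Mthfd1S+/- mucosa, against 9.28, 9.45, 9.28 and 9.25 in WT mucosa. The log2 fold change was -0.20 ± 0.089 (SE), with an unadjusted p of 0.0509 and an adjusted p of 0.837 in limma. The mean of the 10 epithelial markers was 11.2 and 11.1 in Mthfd1S+/- mucosa, against 11.2, 11.2, 11.2 and 11.2 in WT mucosa, lowest in Mthfd1S+/- mouse 2; its part in the result was not tested. Il10ra, the ligand-binding chain of the interleukin 10 receptor on leukocytes, read 6.03 and 5.94, against 6.16, 6.15, 6.19 and 6.15 in WT mucosa, and had the smallest SD among WT mice of any member (0.022). Its log2 fold change was -0.18 ± 0.080 (SE) with an adjusted p of 0.837 in limma.

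Leukocyte markers were read beside Il10ra. The 9 T and NK cell markers had means of 5.38 and 5.53 in Mthfd1S+/- mucosa, against 5.50, 5.38, 5.54 and 5.45 in WT mucosa. The 10 macrophage and dendritic cell markers had 7.02 and 7.001, against 6.86, 6.88, 7.05 and 7.02. In both lists the genotypes overlapped, with 0 markers at an unadjusted p under 0.05. The 8 measured B and plasma cell markers had means of 6.83 and 6.73, against 6.86, 6.82, 6.99 and 6.83. Of these, 2 were lower in Mthfd1S+/- mucosa at an unadjusted p under 0.05: Tnfrsf17 (log2 fold change -0.44) and Mzb1 (-0.38), both known from plasma cells. In the same list 3 markers had a positive log2 fold change: Pax5 (0.18), Cd79b (0.17) and Sdc1 (0.027). The genotypes overlapped in the mean of this list too. The part of these lists in the Il10ra values was not tested. Il20rb, a chain of the receptors for interleukins 19, 20 and 24, lay on the positive side, at 4.75 and 5.00 in Mthfd1S+/- mucosa, against 4.62, 4.68, 4.80 and 4.64 in WT mucosa (log2 fold change 0.19, adjusted p 0.858 in limma), and its groups overlapped. Without Mthfd1S+/- mouse 1 its difference was 0.31, and without mouse 2 it was 0.070. The cytokine Il19 had the lowest log2 fold change of its family, -0.23, with 4.56 and 4.73 in Mthfd1S+/- mucosa, against 4.96, 4.71, 5.08 and 4.75 in WT mucosa.

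Decoy receptors, antagonists and binding proteins form a group of their own by function. Il13ra2, which binds interleukin 13 and is regarded chiefly as a decoy, read 3.16 and 3.14 in Mthfd1S+/- mucosa, against 3.30, 3.37, 3.25 and 3.39 in WT mucosa, all in the dimmest 25% of rows (log2 fold change -0.18, adjusted p 0.837 in limma). Il1rn, the interleukin 1 receptor antagonist, read 7.65 and 6.91, against 7.67, 7.50, 7.22 and 7.49 in WT mucosa. The 2 Mthfd1S+/- mice thus lay near the top and at the bottom of the range, and without mouse 1 the unadjusted p was under 0.05, on the negative side. Il18bp, which neutralises interleukin 18, and Il22ra2, a secreted receptor that neutralises interleukin 22, belonged to the most variable genes.

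Among shared receptor chains, Il6st read 9.80 and 10.09 in Mthfd1S+/- mucosa, against 9.72, 9.58, 9.85 and 9.80 in WT mucosa, a log2 fold change of 0.20 ± 0.12 (SE) with an adjusted p of 0.865 in limma. That difference was 0.35 without Mthfd1S+/- mouse 1 and 0.058 without mouse 2. The highest and lowest mice, Mthfd1S+/- mouse 2 and WT mouse 2, were also the highest and lowest for the mean of the 10 smooth muscle markers and of the 8 fibroblast markers (8.86 and 9.03, against 8.69, 8.50, 8.91 and 8.86). Il6ra, the binding chain for interleukin 6, read 7.30 and 7.60, against 7.39, 7.25, 7.52 and 7.26. It too was highest in Mthfd1S+/- mouse 2 and lowest in WT mouse 2. All 10 smooth muscle markers had a positive log2 fold change (median 0.23), with 0 at an unadjusted p under 0.05. All 8 fibroblast markers were positive too (median 0.11), and 2 passed that p, Mfap4 (0.58) and Lum (0.42). Their part in the receptor values was not tested.

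The 4 secreted members that read higher in both Mthfd1S+/- mice differed in brightness and in gap. Il34, a second ligand of the macrophage growth factor receptor Csf1r, read 6.82 and 6.88 in Mthfd1S+/- mucosa, against 6.74, 6.38, 6.76 and 6.68 in WT mucosa, a log2 fold change of 0.21 ± 0.12 (SE) with an adjusted p of 0.869 in limma. WT mouse 2, which was lowest for fibroblast and smooth muscle markers, was also lowest for Il34, and without that mouse the difference was 0.12. Mthfd1S+/- mouse 1 was below WT mouse 3 in the mean of both marker lists but above it for Il34. The part of these markers in the Il34 values was not tested. Il21, a product of helper T cells, read 4.66 and 4.50, against 4.35, 4.28, 4.45 and 4.47, in the dimmest 25% of rows (log2 fold change 0.19, or 0.11 without Mthfd1S+/- mouse 1; adjusted p 0.854 in limma). Il11, a gp130 cytokine of stromal cells, read 5.34 and 5.39, against 5.27, 5.33, 5.20 and 5.05 (0.15, or 0.096 without WT mouse 4; adjusted p 0.880 in limma). Il12b, the subunit that interleukins 12 and 23 share, read 4.92 and 4.99, against 4.86, 4.91, 4.91 and 4.81, so that its nearest mice of the 2 genotypes all but touched.

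Il15, which sustains NK cells and intraepithelial lymphocytes, read 6.99 and 6.69 in Mthfd1S+/- mucosa, against 6.55, 6.59, 6.70 and 6.80 in WT mucosa. Its high value came from Mthfd1S+/- mouse 1, and the log2 fold change was 0.33 without mouse 2 and 0.029 without mouse 1. Il31, a T cell cytokine linked to itch, read 4.04 and 3.80, against 3.77, 3.87, 3.76 and 3.76, in the dimmest 25%, with a difference of 0.14, and of 0.014 without Mthfd1S+/- mouse 1 and 0.26 without mouse 2. For Il5ra, the interleukin 5 receptor chain of eosinophils, the values were 4.60 and 4.18, against 4.65, 4.98, 5.00 and 4.39 in WT mucosa. It had the lowest log2 fold change of all members, -0.37 ± 0.19 (SE; adjusted p 0.858 in limma), while WT mouse 4 lay between the Mthfd1S+/- mice. Without Mthfd1S+/- mouse 1 the difference was -0.58, and without mouse 2 it was -0.16 and no longer the lowest, since Il1rl2 then had -0.41. The 10 measured markers of mast cells, eosinophils and type 2 innate cells had means of 4.98 and 4.96 in Mthfd1S+/- mucosa, against 4.79, 5.13, 4.88 and 4.85 in WT mucosa, with 0 at an unadjusted p under 0.05; their part in the Il5ra values was not tested.

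The spread between mice of 1 genotype was read from the WT group. The median SD among the 4 WT mice was 0.124 for members and 0.114 for all tested rows. Of secreted members 35.9%, and of receptors 19.4%, lay in the upper 25% of all rows by this SD; dim rows are common among the secreted members, and the part of dimness was not tested. The secreted interleukin 1 family held 6 such genes of 11, and the receptors of that family held 0 of 8.

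Il1b, a central cytokine of acute inflammation, had the largest SD among WT mice. It read 6.18 and 5.73 in Mthfd1S+/- mucosa, against 6.69, 6.20, 5.69 and 5.57 in WT mucosa, so the WT mice spanned the range of both groups. The SD of 0.516 among WT mice exceeded that of 99.5% of tested rows, and the 95% interval of the genotype difference ran from -0.76 to 0.59. The antisense RNA Il1bos did not order the mice as Il1b did: it read 5.13 and 4.38, against 4.78, 4.66, 4.90 and 5.09.

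Il18 and Il18bp were high in the same WT mice as Il1b. Il18 read 8.96 and 8.70 in Mthfd1S+/- mucosa, against 9.15, 9.10, 8.56 and 8.85 in WT mucosa. For Il18bp the values were 6.83 and 6.83, against 7.31, 7.10, 6.82 and 6.65. For all 3 genes WT mice 1 and 2 stood above WT mice 3 and 4, and neither genotype was wholly above the other. The 8 neutrophil markers had means of 5.26 and 4.96 in Mthfd1S+/- mucosa, against 5.19, 5.24, 5.20 and 5.04 in WT mucosa. Of these markers 4 lay in the dimmest 25%, including S100a8 at 3.64, and Ly6g was the brightest at 9.48. Ly6g had a log2 fold change of -0.69, while 5 of the 8 markers had a positive one and the median of the list was 0.027. Their part in the Il1b, Il18 and Il18bp values was not tested.

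Il22ra2 had the second largest SD, 0.456, and a different order. It read 5.14 and 5.00 in Mthfd1S+/- mucosa, against 5.05, 4.38, 4.80 and 5.47 in WT mucosa, with both Mthfd1S+/- mice inside the WT range (log2 fold change 0.15, 95% interval -0.42 to 0.72). Il1f9 (interleukin 36 gamma) read 3.51 and 3.37, against 3.12, 3.64, 3.27 and 3.51, in the dimmest 25%. At the other end, Il10ra, Il17c (SD 0.030) and Il1f10 (0.038) varied least among WT mice.

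**Figure D4:**
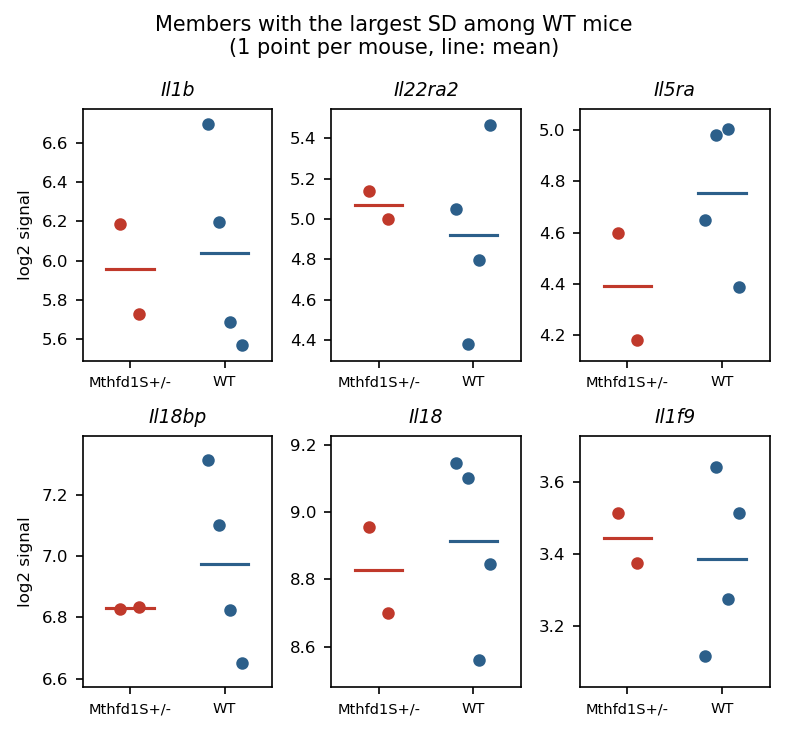
Log2 signal (vertical axis, a separate scale per gene) of the 6 members with the largest SD among WT mice, with 2 Mthfd1S+/- mice in red left of 4 WT mice in blue; lines are group means. WT mouse 1 is highest for Il1b (6.69), Il18bp (7.31) and Il18 (9.15), and the genotypes overlap in every panel.

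The members were also averaged within each mouse. With each member centred over the 6 mice, the mean was 0.021 and -0.040 in the Mthfd1S+/- mice, against 0.023, -0.017, 0.0059 and 0.0069 in the WT mice. The 2 Mthfd1S+/- mice were the highest for 14 and 13 of the 76 members and the lowest for 7 and 20. WT mouse 2 was the lowest for 18, nearly as many as Mthfd1S+/- mouse 2. The same counts were not made over all tested rows, so they cannot show a trait of the members.

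In the interleukin 17 family no member separated the genotypes. Il17ra read 7.47 and 7.35 in Mthfd1S+/- mucosa, against 7.41, 7.29, 7.35 and 7.29 in WT mucosa. The 4 receptors of the family among the members ran from -0.046 to 0.076 in log2 fold change. Il17d, the brightest of the family's 5 ligands among the members, read 7.13 and 7.24, against 7.03, 6.98, 6.97 and 7.26. Type 2 cytokines drive responses to worms and allergens, and tissue alarmins such as Il33 set them off. The type 2 cytokine Il13 read 5.56 and 5.20, against 5.29, 5.49, 5.63 and 5.68. Il4ra, the chain through which interleukins 4 and 13 signal, read 8.17 and 8.28, against 8.17, 8.11, 8.19 and 8.07. Il33, an alarmin of epithelial and stromal cells, read 6.33 and 6.23, against 6.38, 5.90, 6.29 and 5.97, and all 3 of these genes overlapped between genotypes. Il2ra, a receptor chain that regulatory T cells carry at high level, read 5.73 and 5.67, against 5.89, 5.76, 6.00 and 5.54. Il23r, the specific chain of the interleukin 23 receptor, read 4.08 and 3.71, against 4.04, 3.98, 4.00 and 3.83, in the dimmest 25% of rows. Il16, a chemoattractant of CD4+ cells, read 5.75 and 5.72, against 5.94, 5.63, 5.72 and 5.68. The genotypes overlapped for Il2ra, Il23r and Il16 as well.

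The wider signalling pathway was read from 57 measured partners: kinases, STAT factors, their SOCS inhibitors, adaptors, related cytokines and the master factors of T cell subsets. None passed the adjusted threshold in limma, and the median log2 fold change was 0.0069. At an unadjusted p under 0.05 there were 3 partners (5.26%), near the 5.79% of all tested rows. Of these, 2 were higher and 1 lower in Mthfd1S+/- mucosa, where 3.36% and 2.44% of all rows were. The lower one was Foxp3, the factor of regulatory T cells, at 5.86 and 5.78 in Mthfd1S+/- mucosa, against 6.19, 5.96, 6.07 and 6.26 in WT mucosa (-0.30 ± 0.10, SE; adjusted p 0.837 in limma). One of the higher ones was Nfkbia, an inhibitor of NF-kB, at 9.26 and 9.13, against 8.94, 9.06, 8.85 and 8.95 (0.25 ± 0.093, SE). The other was the growth factor Csf1, at 7.60 and 7.64, against 7.37, 7.34, 7.49 and 7.42 (0.21 ± 0.084, SE). Csf1 and Il34 are both ligands of Csf1r, with adjusted p of 0.837 and 0.869 in limma. For each, both Mthfd1S+/- mice read above all WT mice, as they did for 7.96% of all tested rows. For Csf1r itself the genotypes overlapped, with a log2 fold change of 0.046.

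Next by p-value on the lower side were Tyk2, a Janus kinase used by the interleukin 10, 12 and 23 receptors (7.73 and 7.59, against 7.83, 7.85, 7.83 and 7.78), the SOCS gene Socs6 (log2 fold change -0.22) and Stat5a, which acts after interleukins 2 and 7 (6.98 and 6.99, against 7.10, 7.11, 7.19 and 7.10). On the higher side were Csf3r, the neutrophil growth factor receptor (0.14), and Ebi3, the partner subunit of Il27 (0.18). For these 5 the adjusted p in limma ran from 0.855 to 0.895, and the genotypes did not overlap for Tyk2 and Stat5a. Among all 57 partners the genotypes did not overlap for 5 (8.77%), against 14.0% of all tested rows.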

How the data were processed

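The deposited table holds log2 values, 1 per row (transcript cluster) and array. Per the submitters' processing notes, the authors made them with Affymetrix Expression Console. Its version, the build, and the summarisation and background steps are not stated in the sources used here. A log2 scale was inferred from the range, 1.06 to 13.5, and array medians of 5.48 to 5.53. Groups came from the sample titles, and the labels call the arrays biological replicates. Of 41345 rows, 23521 had 1 gene symbol and were tested; 1814 with several symbols and 16010 with none were left out. All 76 members matched RefSeq (GRCm38.p6) by gene identifier.

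The genotype test used limma 3.58.1 (R 4.3.3; lmFit, eBayes, no covariate, two-sided; 4 residual and 4.35 prior degrees of freedom), with Benjamini-Hochberg adjustment over all tested rows and a threshold of 0.05. The number of arrays limits precision: the median SE of a log2 fold change was 0.106. The steps were run on simulated data with planted changes larger than any member's difference, so recovery of differences as small as the members' was not tested. Members, lists, role groups and alternatives were chosen with earlier results of these data known. Named members were up to 8 per direction by smallest p, the 6 with the largest SD among WT mice, and a list of well-known interleukins; named partners were up to 4 per direction. Members described outside this rule (Il1rl2's ligands, chromosomal neighbours, Il1rap, Il1bos, Il1f10, Il17c, Il17d, Il17rc and Il19) were chosen after their values were seen.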

Additional observations from a re-analysis of the deposited data

Results flagged for a closer look

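Among the 76 members, 2 had a WT mouse far from the other WT mice, judged by the gap to its neighbour over the whole range in the 4 WT mice. Chance flags about 1 gene in 20 by this measure. Il6 read 2.86 in WT mouse 1, against 2.69 in each of the other WT mice, and both Mthfd1S+/- mice read lower (2.55 and 2.58); all values lie in the dimmest 25% of rows. Il31 read 3.87 in WT mouse 2, against 3.76 to 3.77 in the other WT mice, also in the dimmest 25%.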

How the results depend on the processing

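No member passed the adjusted threshold under any of the 14 alternatives; without either Mthfd1S+/- mouse, the other is assumed to vary like the WT mice. The count of members at an unadjusted p under 0.05 was 6 with arrays centred on their medians (7.89%, where 5.91% of all rows passed), 5 with the dimmest 25% of rows left out (54 members tested, 9.26% of them, where 6.03% of all rows passed), and 1 to 8 when single mice were left out, with 8 without Mthfd1S+/- mouse 1 (10.5%, of all rows 8.21%) and 1 without WT mouse 3 (1.32%, of all rows 5.38%). The median log2 fold change was -0.052 with centred arrays and -0.033 to 0.026 without single mice, a change of sign without Mthfd1S+/- mouse 2. Members whose groups did not overlap numbered 14 to 36 without single mice, which fewer mice make more likely by construction: without Mthfd1S+/- mouse 1 it was 47.4% of members and 45.0% of all rows, and without WT mouse 1 18.4% and 19.2%. Pathway partners at that p numbered 5 of 57 with ordinary least squares, where 5.19% of all rows passed. Same-numbered mice of the 2 genotypes correlated at 0.117 and -0.0444 in their deviations from the group means, and 0.117 was the highest of any pair. With 2 Mthfd1S+/- mice the deviations of that group mirror each other, so these values cannot decide whether the numbers pair the mice. The labels state no pairing, and the main test used none. With the replicate number as a block (1 residual degree of freedom) 5 members were at an unadjusted p under 0.05 (Il18, Il18bp, Il1b, Il22ra2 and Il5ra; 6.58%, of all rows 9.91%) and the median was -0.0036. Of 289 values of 21 named members, 7 changed sign. Without WT mouse 1 these were Il1b (0.14) and Il1f9 (-0.033), without WT mouse 2 Il22ra2 (-0.033), without Mthfd1S+/- mouse 1 Il1f9 (-0.012), and without Mthfd1S+/- mouse 2 Il7r (-0.0088), Il1b (0.15) and Il18 (0.042); over single mice left out, Il1b ran from -0.31 to 0.15, Il1f9 from -0.033 to 0.14, Il22ra2 from -0.033 to 0.33, Il7r from -0.0088 to 0.48 and Il18 from -0.21 to 0.042. The cause of these changes was not tested.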
